A study of Mus musculus with 2 samples.

Results

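The NF-kB transcription factor subunits, their inhibitors, the kinase *Ikbkb* and the feedback gene *Tnfaip3* were followed in mammary basal cells of mice given a macrophage-depleting agent and of control mice. The 10 genes were chosen by name as rows of the raw count table, *Nfkb1*, *Nfkb2*, *Rela*, *Relb*, *Rel*, *Nfkbia*, *Nfkbib*, *Nfkbie*, *Tnfaip3* and *Ikbkb*, out of 49492 genes, and all 10 were found and were among the 17356 genes tested, those whose summed counts reached 20. Basal cells, which form the contractile layer around the luminal cells of the ducts, were sorted as lineage negative (CD45, CD31 and TER119 among the excluded markers), CD24+ and CD29 high cells from wild-type adult females of 8 to 10 weeks. The CL basal library came from mice given clodronate liposomes (CL) by intraperitoneal injection every other day, 3 times. CL are lipid vesicles that kill the macrophages that take them up. How far macrophages were depleted in the mice of this library is not measured by the files used here. The Ctrl basal library came from mice whose treatment is labelled as none and which the series design describes as given saline. Both are labelled day 7. The sources used here tie neither a strain nor a number of mice to these libraries, though C57/B6 is named for another CL experiment of the study. There was 1 library per group, so replicate error is unknown, and every value compares these 2 libraries and not the conditions.

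NF-kB is a family of dimeric transcription factors with a shared Rel homology domain, which binds DNA. In resting cells the dimers are held in the cytoplasm by IkB proteins, which *Nfkbia*, *Nfkbib* and *Nfkbie* encode, or by the precursor forms of *Nfkb1* and *Nfkb2* products. TNF and interleukin-1 activate the IkB kinase, whose catalytic subunits are encoded by *Ikbkb* and *Chuk* and whose scaffold is encoded by *Ikbkg*. The kinase marks IkB for degradation, and the freed dimers switch on cytokines, adhesion molecules and survival genes. They also switch on their own brakes, above all *Nfkbia* and *Tnfaip3*, so the transcripts of these genes are widely used as a readout of the pathway. In the mammary gland, NF-kB downstream of RANK takes part in alveolar growth during pregnancy. The study asked how basal cells respond to the loss of macrophages, and it treats TNF as a signal from macrophages to basal cells.

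Promoters are shown because NF-kB is known to induce several of its own genes, *Nfkbia*, *Tnfaip3*, *Nfkb2* and *Rel* among them. RefSeq start sites (GRCm38.p6) gave 10 windows of the 250 bases before a start site for 7 of the 10 genes, and *Nfkb1*, *Relb* and *Ikbkb* had none. The NF-kB consensus motif of 10 bases, searched on both strands, was found in 5 of these windows and in 4 of the 7 genes, against 5.0% of all 32851 windows of the same length. A match is a description of letters and not evidence of binding. In the windows of the 4 genes below, read 5′ to 3′ toward the start site, capitals mark the consensus matches.
Nfkbia (chr12:55492648-55492897, minus strand): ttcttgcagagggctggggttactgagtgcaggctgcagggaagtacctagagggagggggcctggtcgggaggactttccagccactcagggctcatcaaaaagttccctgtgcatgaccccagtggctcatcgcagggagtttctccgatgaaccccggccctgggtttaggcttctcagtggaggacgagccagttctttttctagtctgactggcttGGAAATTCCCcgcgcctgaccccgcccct
Tnfaip3 (chr10:19015411-19015660, minus strand): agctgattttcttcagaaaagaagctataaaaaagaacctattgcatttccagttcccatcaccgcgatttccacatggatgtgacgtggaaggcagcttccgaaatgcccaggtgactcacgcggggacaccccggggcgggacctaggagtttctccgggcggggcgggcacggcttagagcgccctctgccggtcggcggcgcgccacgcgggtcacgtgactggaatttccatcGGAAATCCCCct
Rel (chr11:23770970-23771219, minus strand): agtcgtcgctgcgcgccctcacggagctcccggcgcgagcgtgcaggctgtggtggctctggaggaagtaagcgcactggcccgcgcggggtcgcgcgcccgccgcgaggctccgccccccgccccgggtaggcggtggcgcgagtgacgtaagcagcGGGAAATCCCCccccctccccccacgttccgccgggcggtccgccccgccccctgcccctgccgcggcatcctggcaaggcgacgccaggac
Nfkb2 (chr19:46304487-46304736, plus strand): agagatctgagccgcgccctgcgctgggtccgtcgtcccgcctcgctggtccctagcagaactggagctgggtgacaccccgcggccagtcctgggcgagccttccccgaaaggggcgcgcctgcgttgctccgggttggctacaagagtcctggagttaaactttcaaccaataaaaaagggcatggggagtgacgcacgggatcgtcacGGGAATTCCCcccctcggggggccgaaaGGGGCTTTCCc

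The *Nfkbia* match lay 29 to 20 bases before the start site, and the *Tnfaip3* match 12 to 3 bases before it, both on the other strand. The gene span deposited for *Tnfaip3* reaches 247 bases upstream of this RefSeq start site, so by that span the match lies inside the gene. *Rel* had a pair of matches shifted by 1 base, which cover the bases from 92 to 82 before the start. *Nfkb2* had a palindromic match at 39 to 30 bases and another at 11 to 2 bases before this start site, and a further match lay in a window of a later start site. No match to the consensus was found in the windows of *Rela*, *Nfkbib* and *Nfkbie*. This says only that the motif as searched is absent from these windows, and looser forms of it are not covered.

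All 10 genes were expressed in both libraries, and their order by level was nearly the same. Levels between genes are given in TPM, in which counts are divided by the exonic length of the gene and scaled to a common total. Where a pair of values is given without names, Ctrl basal comes first. *Nfkbia* was the most abundant, with 448 TPM in Ctrl basal and 437 TPM in CL basal. *Rela*, *Nfkb2*, *Nfkbib* and *Nfkb1* followed at 60.1 to 168 TPM in Ctrl basal and 70.3 to 175 TPM in CL basal. *Relb*, *Nfkbie* and *Tnfaip3* were close together, at 23.8 to 27.4 TPM in Ctrl basal and 24.9 to 27.9 TPM in CL basal. *Rel* (12.0 and 13.6 TPM in Ctrl basal and CL basal) and *Ikbkb* (7.08 and 7.28 TPM) were lowest. The intervals of counting error overlapped between *Relb* and *Nfkbie* and between *Nfkbie* and *Tnfaip3* in both libraries, and between *Nfkb2* and *Rela* in CL basal. The table's length joins the exons of all isoforms, which lowers the level of genes with many long isoforms. With the length of the principal GENCODE transcript, a choice made after the data were seen, *Nfkb1* moved from the fifth to the second place (176 TPM in Ctrl basal and 206 TPM in CL basal) and *Ikbkb* from the last to the eighth (37.7 and 38.8 TPM). *Relb* (48.1 and 43.8 TPM) and *Tnfaip3* (38.8 and 45.7 TPM) then stood apart from *Nfkbie* (26.5 and 26.3 TPM), so all 3 lay close together with the table's length but not with this one.

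**Figure D1:**
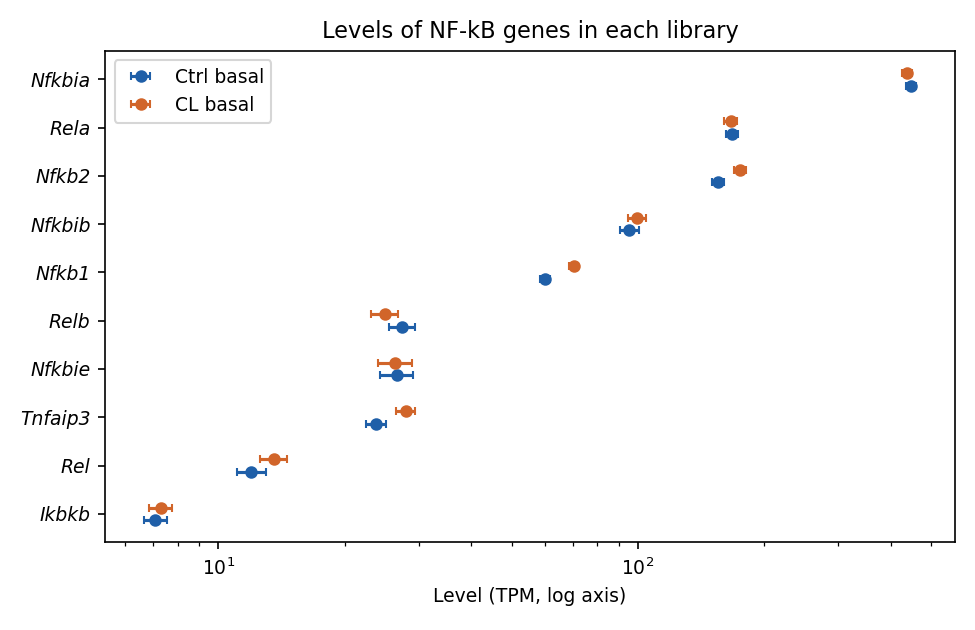
Level of each gene in the Ctrl basal and CL basal libraries in TPM on a log axis; each point is 1 library and the bars are 95% Poisson intervals from counts divided by 2. *Nfkbia* stands highest (448 and 437 TPM in Ctrl basal and CL basal), and the points of the 2 libraries lie close together for every gene.

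The central result is that none of the 10 genes differed by 1.5-fold or more between CL basal and Ctrl basal. Among all 17356 tested genes, 6.33% were at least 1.5-fold higher and 11.7% at least 1.5-fold lower, and 2.07% and 4.79% passed 2-fold. Such differences are concentrated in genes of low counts, so the 10 genes are better read against the 4681 genes within their own range of 1828 to 22368 counts. There only 0.961% were at least 1.5-fold higher and 1.79% at least 1.5-fold lower, so 0 of 10 is close to what this background holds and is not particular to NF-kB genes. The log2 fold changes of the 10 genes ran from -0.16 to 0.21, with a median of 0.03 beside -0.01 over all tested genes and 0.05 over the genes in their count range. The sign of this median depends on the scaling, as it was -0.01 with total counts, beside -0.04 over all tested genes, and -0.02 with the trend on mean expression removed, beside 0.002. Their median absolute log2 fold change was 0.11, against 0.15 in that range.

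Within these narrow bounds, 3 genes were higher in CL basal and 1 was lower by more than counting error, that is with a 95% interval that leaves out 0. Over all tested genes 18.5% were higher and 17.4% lower by this rule, and in the count range of the 10 genes 38% and 21% were. The intervals cover counting error only. In both libraries low counts were mostly even (for values up to 20, 67.9% and 68.7% of genes), while values above 1000 were even in 49.7% and 49.9% of genes, so both mates of a pair may each have added a count, and the intervals were computed from counts divided by 2.

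Among the subunits, the genes of the precursor proteins were slightly higher and *Relb* slightly lower. *Nfkb1* (chromosome 3, 135584655 to 135691547, GRCm38), whose precursor is cut to the DNA-binding subunit p50, had 10372 counts in Ctrl basal and 11996 in CL basal. This is 270.5 and 312 CPM (counts relative to the TMM-scaled library total, not divided by length), and the log2 fold change of CL basal over Ctrl basal was 0.21 (95% interval 0.15 to 0.26). *Nfkb2* (chromosome 19, 46304737 to 46312090), whose precursor is cut to p52 in the non-canonical pathway, had 7297 counts in Ctrl basal and 8149 in CL basal, or 190.3 and 212 CPM. Its log2 fold change was 0.16 (0.09 to 0.22). Both genes were higher in CL basal, by 1.15-fold and 1.11-fold, though with the trend on mean expression removed the log2 fold changes were smaller, at 0.12 and 0.07.

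*Rela* (chromosome 19, 5637483 to 5648130) encodes p65, the main activating subunit of the canonical pathway. It had 6519 counts in Ctrl basal and 6394 in CL basal, and its log2 fold change of -0.03 (-0.10 to 0.04) had an interval that included 0. *Relb* (chromosome 7, 19606217 to 19629438), the partner of p52, had 1522 counts in Ctrl basal and 1369 in CL basal, or 39.7 and 35.6 CPM. Its log2 fold change of -0.16 (-0.31 to -0.01) only just left out 0, and its interval did not overlap that of its partner *Nfkb2*. The ratio of *Nfkb2* to *Relb* in TPM was 5.66 in Ctrl basal and 7.03 in CL basal, and with principal transcripts it was 3.37 and 4.19.

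*Rel* (chromosome 11, 23736847 to 23770970) encodes c-Rel, a subunit best known from lymphocytes and myeloid cells. It had 1282 counts in Ctrl basal and 1431 in CL basal, 33.4 and 37.2 CPM, with a log2 fold change of 0.15 (-0.001 to 0.31). The value was about that of *Nfkb2*, but with fewer counts its interval reached 0. *Ptprc*, the common leukocyte antigen, had 537 counts in Ctrl basal and 521 in CL basal, so reads of this gene were present in both libraries at a like level, although the product, CD45, was a marker the sort excluded. The 6 leukocyte genes found of the 7 listed held 18.8 and 18.4 CPM in all, and the 14 lymphocyte genes 15.3 and 16.1 CPM. The part of such RNA in the *Rel* counts was not tested. In a bulk sample, a change in the number of cells of a type and a change of RNA per cell cannot be told apart.

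The shares of the subunit pool were alike in the libraries. By the table's length, *Nfkb2* and *Rela* were the largest parts of the summed subunit TPM, with 36.7% and 39.7% in Ctrl basal and 38.9% and 37.0% in CL basal. *Nfkb1* held 14.2% in Ctrl basal and 15.6% in CL basal, *Relb* 6.48% and 5.53%, and *Rel* 2.84% and 3.01%. The shares depend on the length used. With principal transcripts *Nfkb1* was the largest part, with 31.1% in Ctrl basal and 33.6% in CL basal. *Rela* then held 29.6% and 27.1%, and *Nfkb2* 28.7% and 29.9%.

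**Figure D2:**
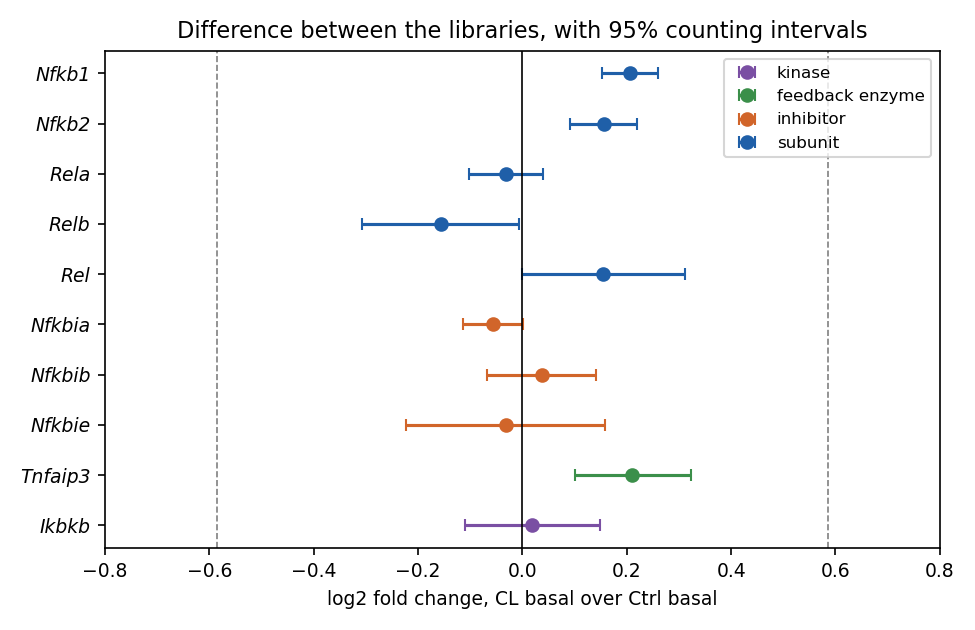
Log2 fold change of CL basal over Ctrl basal for each of the 10 genes, coloured by role, with 95% exact binomial intervals from counts divided by 2; dashed lines mark 1.5-fold. All points lie between -0.16 and 0.21, and the intervals of *Nfkb1*, *Nfkb2* and *Tnfaip3* lie above 0 and that of *Relb* below.

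For all 3 IkB inhibitors the interval of the difference included 0. *Nfkbia* (chromosome 12, 55489411 to 55492647) encodes IkBa, the inhibitor that NF-kB itself induces, and its window holds the match printed above. It had 10112 counts in Ctrl basal and 9749 in CL basal, or 264 and 254 CPM, with a log2 fold change of -0.06 (-0.11 to 0.001). With the interval from the counts as deposited (-0.10 to -0.02) it was lower beyond counting error, and with the trend on mean expression removed its value was -0.14. *Nfkbib* (chromosome 7, 28758251 to 28767512), which encodes the slower inhibitor IkBb, had 2965 counts in Ctrl basal and 3050 in CL basal (log2 fold change 0.04, -0.07 to 0.14). It shares 314 of its 2169 exonic bases with *Ccer2* on the opposite strand, a gene with 18 and 10 counts, and 42 with *Sirt2*, also on the opposite strand, with 785 and 745 counts. *Nfkbie* (chromosome 17, 45555716 to 45563169), which encodes IkBe, had 923 counts in Ctrl basal and 905 in CL basal (-0.03, -0.22 to 0.16). *Nfkbia* made up 78.6% of the summed inhibitor TPM in Ctrl basal and 77.6% in CL basal. The summed inhibitor level over the summed subunit level was 1.35 in Ctrl basal and 1.25 in CL basal. With principal transcripts it was 1.02 and 0.926, so which pool is larger depends on the length used.

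The feedback enzyme was slightly higher in CL basal, and for the kinase no difference was detectable at this depth. *Tnfaip3* (chromosome 10, 19000910 to 19015657) encodes a ubiquitin-editing enzyme that shuts off signalling from TNF receptors. It had 2460 counts in Ctrl basal and 2855 in CL basal, 64.1 and 74.3 CPM, and a log2 fold change of 0.21 (0.10 to 0.32). This was the largest value of the 10 genes, and 22.2% of the genes in the same count range had a value as high or higher. *Ikbkb* (chromosome 8, 22659212 to 22706589), the kinase subunit that phosphorylates IkB, had 1934 counts in Ctrl basal and 1965 in CL basal, with a log2 fold change of 0.02 (-0.11 to 0.15). *Nfkbia* and *Tnfaip3*, the feedback genes read most often together, lay on opposite sides of 0 with intervals that did not overlap.

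**Figure D3:**
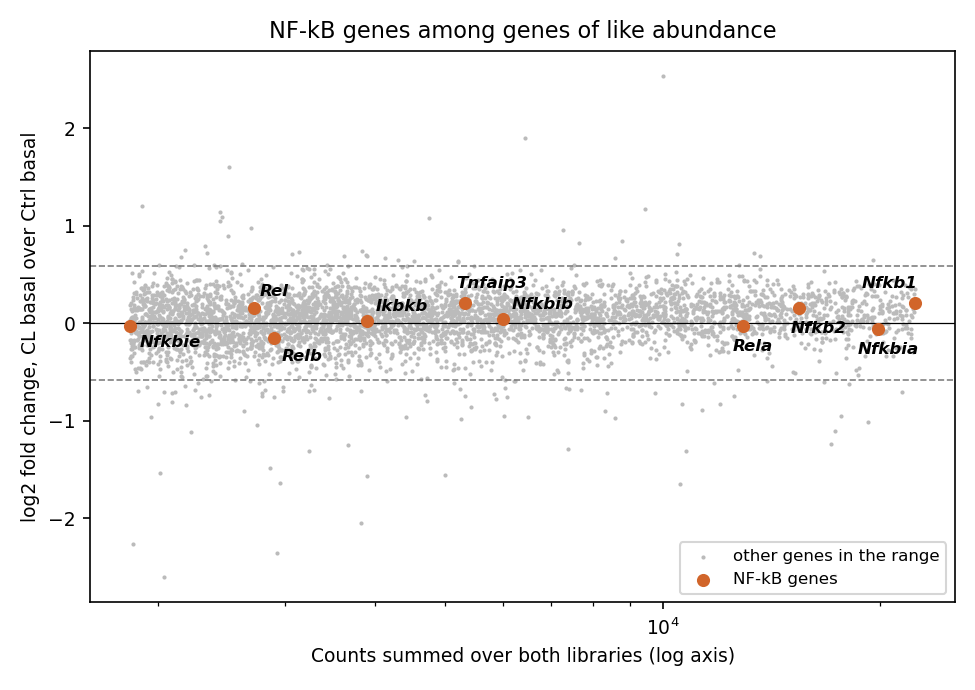
Log2 fold change of CL basal over Ctrl basal against the counts summed over both libraries (log axis) for the 4681 genes in the count range of the 10 NF-kB genes; the latter are orange and labelled, and dashed lines mark 1.5-fold. The NF-kB genes sit inside the grey cloud at all abundances.

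The libraries themselves held 38962512 counts (CL basal) and 37846008 counts (Ctrl basal). The basal and myoepithelial genes checked were all abundant and summed to 21039.5 CPM in Ctrl basal and 21954 CPM in CL basal. Of these 13 genes, 9 were higher and 4 lower by the rule of counting error, beside 18.5% and 17.4% of all tested genes. In the count range of the 10 NF-kB genes the shares were 38% and 21%. The lowest was *Itgb4* (-0.51, 8932 and 6291 counts), and 0 passed 1.5-fold. Luminal genes were lower in CL basal: 12 of the 14 tested were at least 1.5-fold lower, beside 11.7% of all tested genes. The luminal list summed to 5224 CPM in Ctrl basal and 3259 CPM in CL basal, with *Csn2* at 0 counts in both. The 14 macrophage genes summed to 48.6 and 40.8 CPM. *Adgre1*, which encodes F4/80, had 7 counts in Ctrl basal and 10 in CL basal, too few to be tested. *Cd14* (19.5 and 12.2 CPM) stands in both the macrophage and the luminal list, and the other 13 macrophage genes summed to 29.0 and 28.6 CPM. Of the macrophage genes, 11 were tested, with 1 higher and 3 lower by 1.5-fold, beside 6.33% and 11.7% of all tested genes. *Fcgr1* was at 0 in Ctrl basal. By the rule of counting error *Mpeg1* was higher (28 and 88 counts, 1.58), and *Mrc1* (168 and 86 counts, -0.95) and *Cd14* were lower. The near-equal sum without *Cd14* thus holds genes that differed in opposite directions. Fibroblast genes summed to 269 and 218 CPM and endothelial genes to 432 and 353 CPM. Dendritic cell genes summed to 24.2 and 21.1 CPM. Of 13 early response genes, which tissue handling induces, 12 had values above 0, beside 8370 of the 17356 tested genes, and 0 passed 1.5-fold. By the rule of counting error 10 were higher, *Dusp1* (0.46) and *Fos* (0.41) most, and 1 was lower. That rule held 18.5% of all tested genes as higher and 17.4% as lower. In the count range of the 10 NF-kB genes the shares were 38% and 21%. The early response list summed to 7007 and 7819 CPM. The part of these differences in the values of the NF-kB genes was not tested.

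Upstream of the dimers, the kinases and adaptors mostly lay within 1.5-fold, with 4 exceptions. Of 48 genes listed, 47 were tested, 1 was at least 1.5-fold higher and 3 were at least 1.5-fold lower, with a median log2 fold change of 0.11, or 0.04 with the trend on mean expression removed. Over all tested genes 6.33% were higher and 11.7% lower by this rule. The lower count was 2 with a prior count of 5, a thinned library or that trend removed, as *Tab1* then missed 1.5-fold. By the rule of counting error 20 were higher and 9 lower, beside 18.5% and 17.4% of all tested genes. In the count range of the NF-kB genes the shares were 38% and 21%. Not every listed gene falls in that range, and *Ikbkg* and *Tab1* lie below it. The median log2 fold change was -0.01 over all tested genes and 0.05 over the genes in that range. *Ikbkg*, the scaffold of the kinase complex, had 726 counts in Ctrl basal and 419 in CL basal (log2 fold change -0.79, 95% interval -1.05 to -0.55). Of the catalytic subunits, *Ikbkb* was at 0.02, as given above, and *Chuk* had 1425 and 1765 counts (0.30, 0.16 to 0.45). *Map3k14*, the kinase that starts the non-canonical pathway, had 676 and 863 counts (0.35, 0.14 to 0.56). *Ikbkg* shares 418 of its 8110 exonic bases with *G6pdx* on the opposite strand, which was also lower (1375 counts in Ctrl basal and 900 in CL basal). As the use of strand in the counting is not stated, reads from the shared bases cannot be told apart.

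*Tnip3*, a partner of the *Tnfaip3* product, had 479 counts in Ctrl basal and 222 in CL basal (log2 fold change -1.11, -1.45 to -0.78). *Tab1*, an adaptor of the kinase TAK1, had 134 and 88 counts (-0.60, -1.19 to -0.04). *Nfkbid*, a nuclear IkB protein, was the gene past 1.5-fold in the other direction, with 84 and 146 counts (0.78, 0.23 to 1.38). The last values rest on few reads, as their wide intervals show.

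Among ligands and receptors that feed the pathway, 22 of the 30 listed were tested, 3 were at least 1.5-fold higher and 5 at least 1.5-fold lower, with a median of -0.04, beside 6.33% and 11.7% of all tested genes. With scaling to total counts 2 were higher, as *Il1b* missed 1.5-fold (0.57). With a thinned library or the trend removed 4 were lower, as *Tnf* missed it (-0.58 and -0.54), and with the trend removed 4 were higher. *Tnf* had 275 counts in Ctrl basal and 180 in CL basal (log2 fold change -0.61, -1.02 to -0.22). For the TNF receptor genes no difference was detectable at this depth, *Tnfrsf1a* with 2815 and 2955 counts (0.07, -0.04 to 0.17) and *Tnfrsf1b* with 209 and 187 counts (-0.16, -0.58 to 0.25). The lower genes beside *Tnf* were the receptors *Il1rl1* (-1.25, -1.90 to -0.67), *Tlr3* (-1.03, -1.78 to -0.36), *Il18r1* (-0.90, -1.24 to -0.58) and *Eda2r* (-0.70, -1.36 to -0.09). The higher ones were *Edar* (0.71, 0.34 to 1.09), *Ngfr* (0.69, 0.55 to 0.83), a receptor that myoepithelial cells express, and the cytokine *Il1b* (0.60, 0.04 to 1.20, with 86 and 132 counts). *Ngfr* had most reads of these, 1383 in Ctrl basal and 2235 in CL basal.

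The target genes ran over a wider range than the NF-kB genes, and several of them had far fewer counts. Of 52 genes commonly described as NF-kB targets, 50 were tested, 3 were at least 1.5-fold higher and 10 at least 1.5-fold lower, with a median of -0.02, beside 6.33% and 11.7% of all tested genes. There were 5 higher and 6 lower once the ratios were corrected for a trend with mean expression. By the rule of counting error, 18 targets were higher and 14 lower, beside 18.5% and 17.4% of all tested genes and 38% and 21% of those in the count range of the 10 NF-kB genes. Abundant targets higher by this rule but by less than 1.5-fold, named here after their values were seen, included the adhesion genes *Icam1* (0.45, with 37272 and 50893 counts and 511 of its 4360 exonic bases shared with a gene on the opposite strand), *Sele* (0.45) and *Vcam1* (0.40), *Gadd45b* (0.42) and *Irf1* (0.41). Targets lower in the same way were the cytokine *Il6* (-0.40, with 4821 and 3651 counts), *Cxcl5* (-0.49), *Lcn2* (-0.27) and *Cxcl1* (-0.18, with 30698 and 27111 counts). So were *Bcl2l1* (-0.34, with 1124 and 892 counts) and *Fas* (-0.35, with 622 and 490 counts). *Mmp3*, which cleaves matrix proteins, had 1076 counts in Ctrl basal and 367 in CL basal (-1.55, -1.81 to -1.31). *Ptgs2*, the inducible prostaglandin synthase, had 3331 and 1987 counts (-0.75, -0.86 to -0.63), and *Plau*, the urokinase protease, had 3701 and 2337 counts (-0.67, -0.77 to -0.56). The growth factor *Csf2* (-1.06) and the chemokines *Cxcl3* (-0.84) and *Ccl20* (-0.66) were lower on 289 or fewer summed counts, and the interval of *Ccl20* included 0. The other 4 lower targets, named here after their values were seen, were *Tnfaip2* (-0.65, with 1823 and 1161 counts), *Mmp9* (-0.63), *Edn1* (-0.61) and *Nos2* (-0.67, with 55 and 34 counts and an interval that included 0).

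The higher genes with at least 100 counts were *Tap1* and *B2m*, which serve antigen presentation by MHC class I. *Tap1*, a chain of the peptide transporter, had 574 counts in Ctrl basal and 1330 in CL basal (1.21, 1.01 to 1.41), and *B2m*, the light chain of class I, had 3819 and 6697 counts (0.81, 0.73 to 0.89). Both are also induced by interferon. The other gene past 1.5-fold was *Bcl2a1b*, named here after its values were seen, with 4 and 24 counts and 49.1% of its exonic bases shared with another gene. The remaining tested targets lay within 1.5-fold, and counts summed over all 52 genes were 6407 CPM in Ctrl basal and 7173 CPM in CL basal. Most of this difference came from *Icam1* (972 and 1324 CPM) and *C3* (620.3 and 802 CPM). The summed luminal, endothelial and fibroblast genes given above were lower in CL basal, and their part in the target values was not tested.

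**Figure D4:**
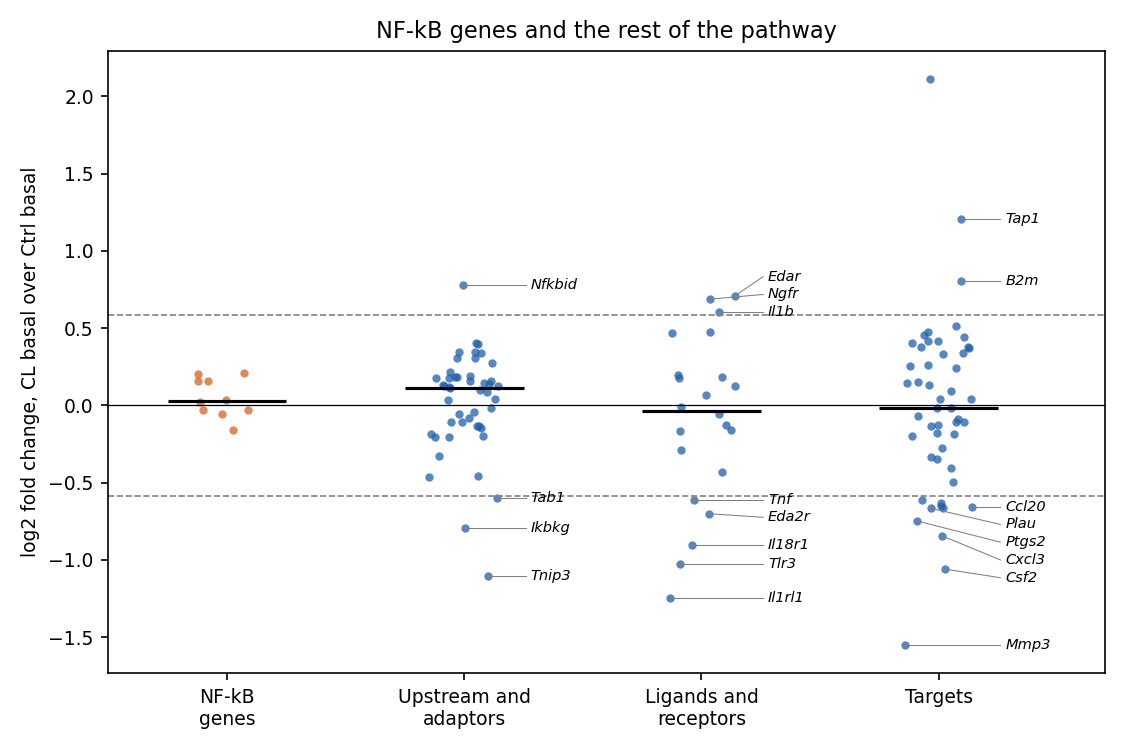
Log2 fold change of CL basal over Ctrl basal for the 10 NF-kB genes (orange) and the tested genes of the 3 pathway lists (blue). Black bars are medians and dashed lines mark 1.5-fold. Labels are limited to genes past 1.5-fold with at least 100 counts, up to 6 per list and direction. The NF-kB genes span -0.16 to 0.21, while the targets span -1.55 (*Mmp3*) to 2.11 (*Bcl2a1b*, on 28 summed counts).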

How the data were processed

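RNA of sorted mammary basal cells was sequenced on an Illumina HiSeq instrument as 1 library per group. The labels name SMARTER mRNA-Seq libraries and the build GRCm38 (mm10). The authors deposited unnormalized read counts for each gene, summed over its exons in a featureCounts-like layout; the aligner, the annotation, the use of strand and the treatment of PCR copies are not given in the sources used here. The deposited ratio and its log2 are the authors' own comparison and were not used. The 10 genes and the gene lists were chosen with earlier results of these data known.

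Counts were scaled by TMM in edgeR 4.0.16 (R 4.3.3), and CPM and folds use the TMM-scaled library totals. Genes whose summed counts reached 20 were kept, and log2 fold changes used a prior count of 2. Intervals of 95% were exact binomial (Clopper-Pearson, scipy 1.17.1) for ratios and exact Poisson for levels, from counts divided by 2, since low counts were mostly even. The depths of 38962512 and 37846008 counts give a floor of 0.078 CPM in both libraries (3 counts). TPM was computed from counts and the deposited gene length. No model with a spread between replicates can be fitted to 1 library per group, so no test was made. The code was tested on simulated data. Beside the 10 genes, named genes were 6 fixed ones and, per list, up to 6 in each direction with at least 100 counts and a 1.5-fold difference. Exons that genes share were counted from the table, and of the 10 genes 7 had the same start and end in GENCODE M21. Alternatives were other scalings (total counts, DESeq2 1.42.0 size factors, upper quartile), prior counts, filters, a thinned library, a trend on mean expression and a threshold of 2-fold.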

Additional observations from a re-analysis of the deposited data

How the results depend on the processing

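None of the 10 NF-kB genes reached 1.5-fold under any scaling, prior count, filter, thinned library or trend removal tried, and none reached 2-fold. Of 90 values of these genes under alternatives, 86 stayed within their main interval, though a filter cannot change a gene's own ratio. The other 4 came from removing the trend on mean expression, which put *Nfkb1* at 0.12, *Nfkb2* at 0.07, *Rela* at -0.11 and *Nfkbia* at -0.14. All 216 values of the other named genes, those of the filters again among them, stayed within their wider intervals. Of 180 values of the 20 named genes past 1.5-fold, likewise with the filters, 7 fell below it. These were *Tab1* with a prior count of 5 (-0.58), a thinned library (-0.57) and the trend removed (-0.50), *Tnf* with a thinned library (-0.58) and the trend removed (-0.54), *Ccl20* with the trend removed (-0.54) and *Il1b* with total counts (0.57). With intervals from the counts as deposited, 4 of the 10 genes (*Rel* joined) were higher and 2 (*Nfkbia* joined) were lower beyond counting error, since each interval is then narrower.

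The counts over all genes moved with the filter and the threshold. Genes at least 1.5-fold higher and lower numbered 3309 and 5315 with no filter and 396 and 937 with at least 100 counts, as other genes were tested. They numbered 360 and 831 at 2-fold, and 45 and 84 in the count range of the 10 genes, a background chosen after seeing the data. The ligand and receptor list had 10 genes lower with no filter. The target list had 5 higher and 6 lower without the trend on mean expression, and the cause was not tested. No paired analysis was possible because there was a single library for each group. Low counts limit *Tab1*, *Nfkbid*, *Il1rl1*, *Tlr3*, *Eda2r*, *Il1b*, *Csf2*, *Cxcl3* and *Ccl20*, each with 289 or fewer summed counts.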
